A study of Drosophila melanogaster with 18 samples.

Results

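The genes of the cytoplasmic ribosomal proteins were followed through 6 groups of Drosophila wing discs. They were taken as the protein-coding genes whose names begin with RpL, RpS or RpLP and a number, together with stubarista (sta), the gene of the small subunit protein called RpSA in other animals. This gave 93 of the 15602 genes in the deposited table, 54 of the large and 39 of the small subunit, and 87 of them were high enough to be tested. Wing imaginal discs, the larval epithelia that become the adult wing and thorax, were dissected from wild-type OregonR larvae 96 h after egg laying. One group was frozen without culture and is called uncultured. The culture medium was Grace's, supplemented with 5% fetal bovine serum. Cultured discs received no hormone for 4 h, 20 nM 20-hydroxyecdysone (20E, the steroid that drives insect moulting and metamorphosis) for 4 h or 9 h, or 5 µg/ml bovine insulin for 4 h or 9 h. Each group had 3 libraries, which the submitters describe as biological replicates. No hormone-free culture of 9 h was analysed here, so a change between 4 h and 9 h in a hormone cannot be told apart from a change with culture time.

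Each cytoplasmic ribosome holds one copy of most of these proteins, and their mRNAs are abundant in growing cells at closely matched levels. In flies the loss of one gene copy of many of them gives the Minute phenotype, with slow development and thin bristles, and in mammals their mRNAs carry a 5′ terminal oligopyrimidine tract through which the kinase mTOR controls their translation. In growing larval tissue, insulin signalling, Tor and the transcription factor Myc are known to raise ribosome production, and the nucleolar assembly factors of the ribosome are among the genes that respond.

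Expression was measured by sequencing poly(A)-selected RNA and is given as FPKM (sequenced fragments scaled to transcript length and to library size), so levels of different genes are compared per length. The FPKM of a library summed to between 829275 and 918429, and depth, estimated from the steps between low values, ran from 27.75 to 37.80 M fragments. The wing disc markers, with 6 of 7 found in the table, summed to between 361 and 477 FPKM, among them vg, nub and ap. All 5 fat body markers and all 5 haemocyte markers stayed under 1 FPKM in every library. Of 5 gut markers, 4 reached 1 FPKM in some library and Jon99Ciii was listed at 0 throughout. Their summed level was 10579.5 FPKM in uncultured replicate 2 and 692 FPKM in no hormone replicate 1, against 0.839 to 214 FPKM elsewhere. The pair of leg and haltere disc markers summed to 62.6 to 71.7 FPKM in 20E at 9 h and 36.1 to 45.0 FPKM in uncultured discs. The 3 muscle markers summed to 4.11 to 11.9 FPKM in uncultured discs and 2.10 to 3.47 FPKM without hormone, and the 4 testis markers to 0.646 to 1.17 and 0.189 to 0.328 FPKM. The part of these markers in the results was not tested. A disc is a mixture of cells, and a lower level cannot be told apart from fewer cells that express a gene.

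The main copies of the genes lay close together. Of the 78 main copies with any expression, 76 had a mean over the 18 libraries between 2500 and 10000 FPKM, around a median of 4976 FPKM. RpL24 was the lowest at 3006 FPKM. Above the range stood RpL41, whose product is a very short peptide at the joint of the subunits, at 41359 FPKM, and RpL39, a protein at the exit tunnel, at 19726 FPKM. Next below them came RpL29 with 9634 FPKM, 3.21 times the level of RpL24. These 3 genes also have the shortest transcripts of the main copies, 320 nt for RpL41, 288 nt for RpL39 and 329 nt for RpL29. The length correction estimated for these libraries from transcripts of at least 1000 nt was 170 to 210 nt. It was not estimated for transcripts as short as these, whose FPKM would depend strongly on such a correction. Among the 100 genes with the highest FPKM of each library, 78 or 79 were ribosomal protein genes.

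Genes with special roles lay in the same range. The stalk that recruits elongation factors was measured through RpLP0 at 3075 FPKM, RpLP1 at 7178 FPKM and RpLP2 at 5638 FPKM, as means over 18 libraries. RpS27A and RpL40, which encode a ribosomal protein fused to ubiquitin, stood at 7364 and 4477 FPKM, and sta stood at 4818 FPKM. A single main copy, RpL15, was listed at 0 in all 18 libraries. RpL15 is an essential gene of the large subunit with no second copy in the table, and the elongation factor gene Ef1alpha48D was listed at 0 as well, so no level is read from these entries.

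The table also holds 14 extra gene copies, and these were far more uneven. RpS14b, whose protein is the same as that of RpS14a, stood at 2301 FPKM, RpL34a at 924 FPKM and RpS15Ab at 691 FPKM, as means over 18 libraries. RpL24-like, RpL7-like and RpLP0-like, whose yeast relatives are assembly factors of the large subunit and not parts of the finished ribosome, stood at 352, 178 and 68.4 FPKM. The copies known from the germline were close to the floor of the measurement. RpS5b ranged from 1.32 to 2.79 FPKM, RpS19b from 0.368 to 3.34 FPKM and RpL22-like from 0.140 to 1.07 FPKM. RpS28a was above 0 in 3 of 18 libraries, at 1.17, 1.12 and 1.27 FPKM. RpS28-like and RpS10a did not exceed 0.198 and 0.151 FPKM, and RpL10Aa and RpL37b were listed at 0 throughout. RpL22-like, RpS28-like, RpS10a, RpL10Aa, RpL37b and RpL15 were the 6 genes that were not tested.

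Ribosomal protein genes took up a smaller part of the transcriptome in uncultured discs than in any culture. Their summed level made up 45.5, 42.4 and 44.7% of all FPKM in the uncultured libraries. Without hormone the shares were 51.8, 52.1 and 51.4%, and in 20E at 4 h they were 52.1, 51.8 and 52.5%. Each of these 6 cultured libraries lay above each uncultured one. In 20E at 9 h the shares were 53.2, 49.6 and 53.2%, with replicate 2 below the others. Insulin gave 49.3, 49.6 and 49.1% at 4 h and 51.6, 51.1 and 51.2% at 9 h. The insulin libraries at 4 h thus lay between the uncultured libraries and those without hormone, without overlap on either side. No test is given for these sums, since they are scores over the gene set.

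**Figure D1:**
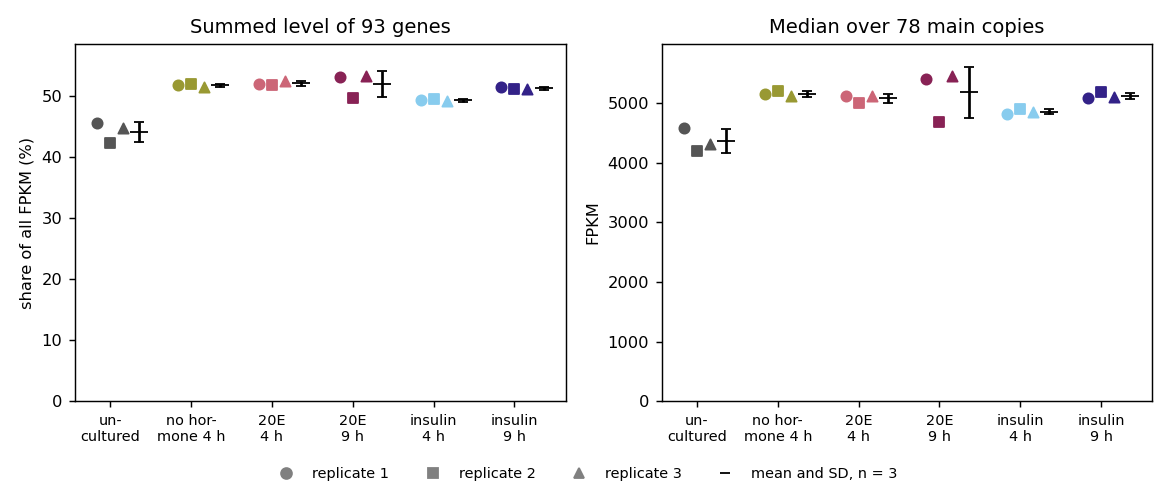
Left, summed FPKM of the 93 ribosomal protein genes as a share of all FPKM in each library; right, median FPKM over the 78 main copies in each library (symbols are replicates 1 to 3, dashes and bars the mean and SD of 3 libraries). The uncultured libraries are lowest in both plots, the mean of insulin at 4 h lies between theirs and those of the other cultures, and replicate 2 of 20E at 9 h stands below its group.

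FPKM are relative to the library, and a gene set of this size weighs on its own scale. The ribosomal protein genes summed to 400915 ± 16136 FPKM in uncultured discs and 468836 ± 8063 FPKM without hormone (SD, n = 3), while all other genes together summed to 506083 ± 17092 and 437073 ± 2936 FPKM. The genes of the inducible heat shock proteins summed to 7629.9 ± 2193 FPKM in the uncultured libraries and 523 ± 219.8 FPKM without hormone. Their part in the difference was not tested. Amounts of RNA per disc or per cell were not analysed here, so all changes are changes in relative abundance.

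Culture alone was examined first, as discs kept 4 h in medium with no hormone against uncultured discs. On the deposited scale nearly all ribosomal protein genes rose by a similar small amount. Of 87 tested genes, 77 were called higher than in uncultured discs, 2 lower and 8 were not called, where a call is an adjusted p under 0.05. Over all 8524 tested genes 35.1% were called higher and 35.5% lower, and the median log2 change was -0.00. The median log2 change of the ribosomal protein genes was 0.23, or 17.0%. After quantile normalization the median was 0.03 for these genes and 0.03 for all tested genes. There 24 of these genes were called higher, against 3117 of all 8524. The log2 changes of the ribosomal protein genes also lay closer together, with an interquartile range of 0.05 against 0.76 over all tested genes. Most of these genes have far higher FPKM than genes in general, and no set of matched level was compared. For 78 of the 87 genes every cultured library lay above every uncultured one, against 36.5% of all tested genes.

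**Figure D2:**
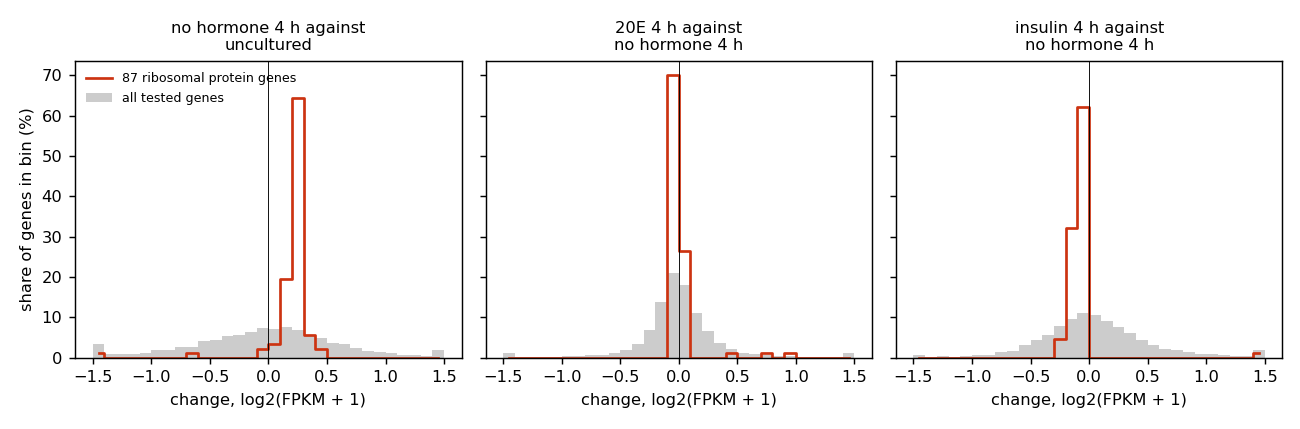
Share of genes by size of change (log2 of FPKM + 1, in steps of 0.1, with changes past 1.5 put in the outer bins) for 3 comparisons at 4 h. The 87 ribosomal protein genes (red line) form a narrow peak to the right of 0 in culture without hormone, near 0 in 20E and just left of 0 in insulin, inside the broad distribution of all 8524 tested genes (grey).

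Both subunits took part in the rise. In the large subunit 47 of 50 tested genes were called higher and 1 lower, with a median log2 change of 0.23, and in the small subunit 30 of 37 were called higher and 1 lower, with a median of 0.21. The stalk genes RpLP0, RpLP1 and RpLP2 rose by 0.18, 0.22 and 0.22, and the ubiquitin fusion genes RpS27A and RpL40 by 0.17 and 0.19. RpL41 went from 36966 ± 1707 to 42779 ± 1680.2 FPKM (SD, n = 3), and its log2 change was 0.21 ± 0.08 (SE, adjusted p = 0.0224). All 6 of these genes were called higher.

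The strongest rises among main copies were those of RpS29 and RpL5. RpS29 (FBgn0261599, chromosome 3R, 9778042 to 9779528, plus strand; coordinates here and below are of the assembly BDGP6.54), a protein of the small subunit head, stood at 4049, 4436 and 4066 FPKM in the uncultured libraries and at 5166, 5654 and 5826 FPKM without hormone. Its groups did not overlap, and the log2 change was 0.41 ± 0.08 (SE, adjusted p = 0.00024). RpL5 (FBgn0064225, chromosome 2L, 22532279 to 22536884, minus strand), which carries a small ribosomal RNA into the large subunit, stood at 4591, 4191 and 4418 FPKM in uncultured discs and 5591, 5454 and 5785 FPKM without hormone. All 3 cultured libraries were again higher, with a log2 change of 0.35 ± 0.05 (SE, adjusted p = 1.86e-05). The extra copy RpL7-like (FBgn0032404, chromosome 2L, 12056326 to 12058251, plus strand) rose most of all, from 143, 139 and 145 to 192, 195 and 196 FPKM, by 0.44 ± 0.06 (SE, adjusted p = 2.06e-05). RpL7-like overlaps CG34164 on the same strand, and CG34164 stood at 3.15 FPKM in uncultured discs and 2.12 FPKM without hormone, on average.

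The 8 genes that were not called higher or lower were a mixed group. RpS2, a main copy at the mRNA entry of the small subunit, had 5358, 4757 and 5020.2 FPKM in uncultured discs and 5309, 5211 and 4902 FPKM without hormone, so its groups overlapped (log2 change 0.03 ± 0.06, SE, adjusted p = 0.707). The gene sta changed by 0.14 ± 0.06 (SE, adjusted p = 0.0587), RpS18 by 0.15 ± 0.07 (SE, adjusted p = 0.0724) and RpL3 by 0.16 ± 0.09 (SE, adjusted p = 0.14). These 3 were positive like the rest of the set but were not called. The extra copies RpL34a, RpS15Ab, RpS5b and RpS28a were the other 4. RpS2, RpS18 and RpL3 were named after their values were seen.

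RpLP0-like fell, while all 78 main copies had a higher mean without hormone than in uncultured discs. RpLP0-like (FBgn0033485, chromosome 2R, 10098518 to 10099590, minus strand) is related to RpLP0, and its yeast relative Mrt4 holds the place of the stalk base during assembly and leaves before the ribosome is finished. It stood at 154, 153 and 149 FPKM in the uncultured libraries and at 27.4, 31.6 and 31.1 FPKM without hormone. The log2 change was -2.31 ± 0.11 (SE, adjusted p = 1.02e-10), and the mean fell by 80.3%. RpLP0 itself rose by 0.18 ± 0.04 (SE, adjusted p = 0.00127) in the same libraries. RpLP0-like overlaps Jra, the fly Jun gene, on the other strand, and Jra changed by -0.95 ± 0.07 (SE, adjusted p = 6.44e-09). The libraries were made with a strand-specific kit, but whether strand was used when fragments were assigned is not given in the sources used here. The other gene called lower was RpS19b, a copy expressed mainly in the germline. It stood at 2.55, 1.35 and 1.81 FPKM in uncultured discs and 0.935, 1.16 and 0.368 FPKM without hormone (log2 change -0.68 ± 0.22, SE, adjusted p = 0.0132). Without uncultured replicate 1 or no hormone replicate 3, 1 gene was called lower in place of 2. The summed level of 6 germline markers was 2.61 to 3.17 FPKM in the uncultured libraries and 1.78 to 2.12 FPKM without hormone, and its part in this change was not tested.

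**Figure D3:**
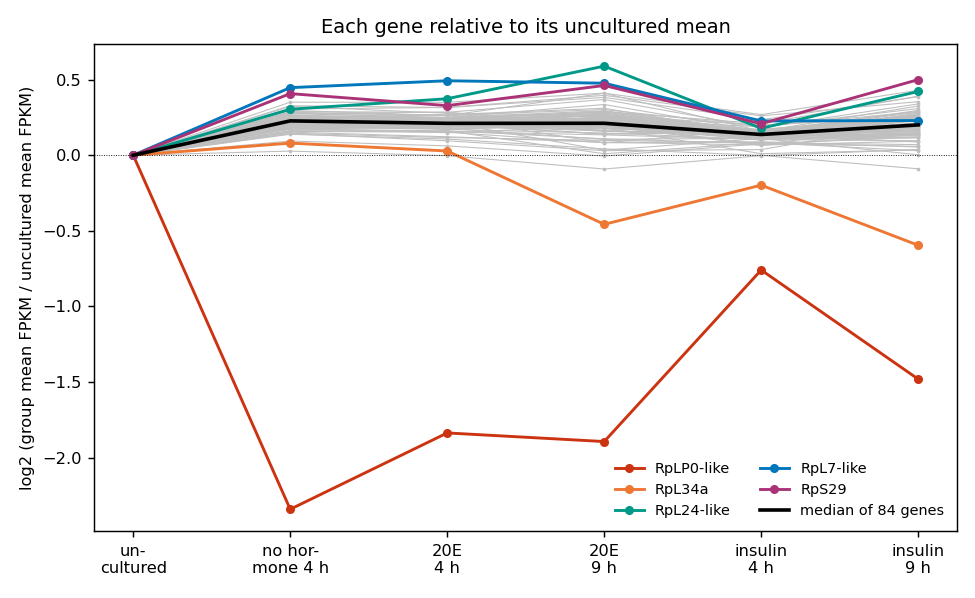
Mean FPKM of each group relative to the uncultured mean (log2, without pseudocount) for the 84 ribosomal protein genes with a mean above 20 FPKM. Grey lines are single genes and the black line is their median. RpLP0-like (red) falls furthest without hormone, RpL34a (orange) lies below the set in both hormones at 9 h, and most other genes stay in a narrow band above 0.

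The effect of 20E was measured at equal culture time. The ribosomal protein genes hardly differed from culture without hormone. Of 87 genes 2 were called higher and 0 lower by limma, against 15.7% and 15% of all tested genes, and 3 had an unadjusted p under 0.05. The median log2 change was -0.01 for the set (0.01 after quantile normalization and 0.02 with all other genes as the scale) and -0.01 for all tested genes, and the interquartile range was 0.03 against 0.27. RpLP0-like rose from 30.0 ± 2.26 to 42.6 ± 5.62 FPKM (SD, n = 3), by 0.49 ± 0.11 (SE, adjusted p = 0.00282) on the log2 scale. Its 20E libraries held 37.1, 48.4 and 42.3 FPKM, all above those without hormone and far below the uncultured level. RpS19b was the second, at 2.09, 3.34 and 2.25 FPKM in 20E against 0.935, 1.16 and 0.368 FPKM without hormone (log2 change 0.98 ± 0.22, SE, adjusted p = 0.00373). At 1 to 3 FPKM this rests on few fragments.

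In insulin at 4 h the set lay slightly lower than without hormone on the deposited scale. Of 87 genes 1 was called higher and 7 lower, fewer than the 30.3% and 27.6% of all tested genes. The log2 change was below 0 for 85 of the 87 genes, with a median of -0.09 (-6.23%, and 0.00 after quantile normalization) against 0.01 over all tested genes. For 60 of the 87 genes every insulin library lay under every library without hormone, against 31.3% of all tested genes. The differences were thus small and nearly all of one sign, and most of them did not pass the test. The count of lower genes was 3 without no hormone replicate 2, 4 without no hormone replicate 3 and 4 without insulin 4 h replicate 2. It was 47 when only the groups compared were fitted and 44 with array weights, fits for which no share over all genes is given.

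The 7 lower genes came from both subunits. RpL34a stood at 1096, 1097 and 1102 FPKM without hormone and 900.2, 909.8 and 907 FPKM in insulin, and it fell by 0.28 ± 0.06 (SE, adjusted p = 0.00174). RpL7-like fell by 0.22 ± 0.06 (SE, adjusted p = 0.00925) and RpS29 by 0.20 ± 0.08 (SE, adjusted p = 0.038). RpS29 was no longer called without no hormone replicate 2 or 3 or insulin 4 h replicate 1 or 3. The others were RpLP0, which fell by 0.11 ± 0.04 (SE, adjusted p = 0.0278), and RpS12, RpS3A and RpL21, which were named after their values were seen and changed by -0.15, -0.14 and -0.14.

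RpLP0-like was the one gene called higher in insulin. Its insulin libraries at 4 h held 83.2, 92.4 and 94.1 FPKM, against 27.4, 31.6 and 31.1 FPKM without hormone. The log2 change was 1.55 ± 0.11 (SE, adjusted p = 2.26e-08), a ratio of means of 2.99. Insulin thus left RpLP0-like between its uncultured level of 152 ± 2.55 FPKM and its level without hormone, and every library of the 3 groups kept that order. Jra changed by 0.18 ± 0.07 (SE, adjusted p = 0.0305) in the same comparison.

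The hormones were also compared with each other at 4 h. Of 87 ribosomal protein genes 5 were called higher in 20E and 1 lower, against 27.6% and 29.2% of all tested genes. The log2 difference was positive for 84 genes, with a median of 0.08 (0.00 after quantile normalization) against -0.01 over all tested genes. For 55 genes every 20E library lay above every insulin library, against 31% of all tested genes. RpL7-like was higher in 20E by 0.26 ± 0.06 (SE, adjusted p = 0.00289), RpL34a by 0.23 ± 0.06 (SE, adjusted p = 0.00734) and RpL24-like by 0.19 ± 0.06 (SE, adjusted p = 0.00875). RpS19b differed by 1.21 ± 0.22 (SE, adjusted p = 0.000289) at levels under 4 FPKM, and RpL21, a main copy named after its values were seen, by 0.15 ± 0.04 (SE, adjusted p = 0.00762). RpLP0-like was the gene called lower in 20E, by 1.07 ± 0.11 (SE, adjusted p = 9.26e-07). With all other genes as the scale 52 genes were called higher, against 2974 of all 8524 tested genes. With array weights 68 were called higher, and no share over all genes is given for that fit.

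Change with time was followed within each hormone. From 4 h to 9 h in 20E, 1 of 87 genes was called higher and 3 lower, against 11.2% and 11.7% of all tested genes, and the median log2 change was -0.01 against 0.01. RpL24-like (FBgn0037899, chromosome 3R, 11430740 to 11431582, minus strand), which overlaps Dtd on the other strand, rose from 365 ± 23.7 to 423 ± 32.6 FPKM (SD, n = 3), by 0.21 ± 0.06 (SE, adjusted p = 0.0141). RpL10, a protein that joins the large subunit late in its maturation, went from 5223, 5518 and 5296 to 4671, 4817 and 4635 FPKM (log2 change -0.18 ± 0.05, SE, adjusted p = 0.0258). RpS27A went from 7856, 7678 and 7871 to 7228, 6577 and 7266 FPKM (log2 change -0.15 ± 0.04, SE, adjusted p = 0.0103). RpS27A overlaps Ip259 on the same strand, and Ip259 rose by 0.37 ± 0.06 (SE, adjusted p = 0.000657) over the same time. For RpL10 and RpS27A every 9 h library lay below every 4 h library, yet neither was called when only the groups compared were fitted. RpL10 was also not called without 20E 4 h replicate 2 or 3 or without 20E 9 h replicate 1 or 3.

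One library weighed on the 9 h results. Replicate 2 of 20E at 9 h was the lowest of its group for 76 of the 78 main copies, with a median difference of -16.1% from the mean of the other libraries of its group. Without it 17 genes were called higher from 4 h to 9 h in 20E and 4 lower. The count of higher genes was 0 without replicate 1 or replicate 3 of 20E at 9 h, and 0 without replicate 2 of 20E at 4 h. Its FPKM summed to 829275, the lowest of all libraries, and its gut markers summed to 13.6 FPKM. Their part in the difference was not tested.

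In insulin from 4 h to 9 h, 6 genes were called higher and 2 lower, against 21.3% and 23.3% of all tested genes, and the log2 change was positive for 72 of 87 with a median of 0.07 (0.00 after quantile normalization) against 0.00. For 41 genes every 9 h library lay above every 4 h library, against 26.8% of all tested genes. RpS29 stood at 4589, 5061 and 4848 FPKM at 4 h and 6335, 5604 and 5808 FPKM at 9 h, all 3 later libraries being higher, with a log2 change of 0.29 ± 0.08 (SE, adjusted p = 0.0068). RpL24-like rose by 0.24 ± 0.06 (SE, adjusted p = 0.00302), and sta by 0.17 ± 0.06 (SE, adjusted p = 0.0397). RpL5, RpS24 and RpS26, RpS24 and RpS26 being named after their values were seen, rose by 0.16, 0.16 and 0.15. The count of higher genes was 3 without any one of insulin 4 h replicates 1, 2 and 3 or insulin 9 h replicates 1 and 3. Array weights gave 33 higher and 5 lower, with no share over all genes given for that fit.

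RpLP0-like and RpL34a were the 2 genes that fell with time in insulin. RpLP0-like went from 83.2, 92.4 and 94.1 to 58.9, 50.4 and 54.2 FPKM, a log2 change of -0.71 ± 0.11 (SE, adjusted p = 0.000103). In 20E it had 37.1, 48.4 and 42.3 FPKM at 4 h and 41.0, 34.7 and 47.2 FPKM at 9 h, and those groups overlapped (log2 change -0.06 ± 0.11, SE, adjusted p = 0.734). The difference between the changes with time, tested as the interaction of hormone and time, was 0.65 ± 0.15 (SE, adjusted p = 0.00553). It was the only call among the 87 genes, 1 higher and 0 lower, against 13.5% and 13% of all tested genes, with 4 genes at an unadjusted p under 0.05.

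At 9 h the hormones differed in few ribosomal protein genes. Of 87 genes 5 were higher in 20E and 2 lower, against 26.6% and 26.4% of all tested genes, with a median log2 difference of 0.01 against -0.01. RpL7-like stood at 213, 175 and 207 FPKM in 20E and 169, 178 and 155 FPKM in insulin, a difference of 0.24 ± 0.06 (SE, adjusted p = 0.00565) with overlapping groups. RpL24-like was higher in 20E by 0.17 ± 0.06 (SE, adjusted p = 0.0229) and RpS3A, the one tested gene on chromosome 4, by 0.13 ± 0.05 (SE, adjusted p = 0.0314). RpLP0-like was lower in 20E by 0.41 ± 0.11 (SE, adjusted p = 0.00427) and sta by 0.19 ± 0.06 (SE, adjusted p = 0.0248). Without replicate 2 of 20E at 9 h 30 genes were called higher in 20E and 1 lower. Leaving out replicate 1 of 20E at 9 h gave 2 higher and 4 lower, and leaving out replicate 3 gave 2 and 5. Without insulin 9 h replicate 2 the lower count was 1, and without replicate 3 the counts were 3 and 1.

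The cultures with hormone were also set against uncultured discs as a measure of distance. All these comparisons and that of the cultures without hormone use the same uncultured libraries, so their values are given side by side only. In 20E 76 genes were called higher and 1 lower at 4 h, against 34.2% and 33.1% of all tested genes, with a median log2 change of 0.21. Quantile normalization gave 25 higher and 3 lower, against 2994 and 2495 of all 8524 tested genes. The medians were then 0.04 for the set and 0.03 for all tested genes. At 9 h in 20E the counts were 66 and 2, against 36.9% and 34.4%, with a median of 0.20. When only the groups compared were fitted 24 genes were called higher, and no share over all genes is given for that fit. Quantile normalization gave 27 higher and 8 lower, against 3175 and 2683 of all 8524 tested genes. The medians were then 0.04 for the set and 0.03 for all tested genes. Insulin at 9 h gave 61 higher and 3 lower, against 34.4% and 33.2%, with a median of 0.20. After quantile normalization the counts were 24 higher and 12 lower, against 2740 and 2749 of all 8524 tested genes. The medians were then 0.04 for the set and -0.00 for all tested genes. Insulin at 4 h gave 28 higher and 3 lower, against 25.8% and 26.7%, with a median of 0.14. After quantile normalization the median was 0.03, against -0.01 over all tested genes. Leaving out 1 library gave 56 to 77 higher in 20E at 4 h and 46 to 74 at 9 h. In insulin at 9 h it gave 47 to 68 higher.

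The number of higher genes in insulin at 4 h depended on the processing and on single libraries. It was 81 with all other genes as the scale, against 3663 of all 8524 tested genes. It was 57 with array weights and 9 without the filter, fits for which no share over all genes is given. It was 11 without uncultured replicate 2, 14 without uncultured replicate 3, and 17, 14 and 13 without insulin 4 h replicates 1, 2 and 3. RpL5 rose by 0.27 ± 0.05 (SE, adjusted p = 0.000479), RpS27, a zinc-binding protein of the small subunit, by 0.26 ± 0.06 (SE, adjusted p = 0.00242), and RpL22, an RNA-binding protein of the large subunit, by 0.23 ± 0.07 (SE, adjusted p = 0.0108). Among main copies the highest rises at 9 h were those of RpS29, by 0.50 ± 0.08 (SE, adjusted p = 4.16e-05) in insulin and 0.46 ± 0.08 (SE, adjusted p = 8.47e-05) in 20E, and RpL5, by 0.43 ± 0.05 (SE, adjusted p = 2.81e-06) in insulin. RpL24-like rose by 0.59 ± 0.06 (SE, adjusted p = 2.61e-07) in 20E and 0.42 ± 0.06 (SE, adjusted p = 1.08e-05) in insulin at 9 h. RpLP0-like stayed below its uncultured level in all 5 cultures, by 2.31 on the log2 scale without hormone, 1.82 and 1.88 in 20E and 0.75 and 1.47 in insulin.

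**Figure D4:**
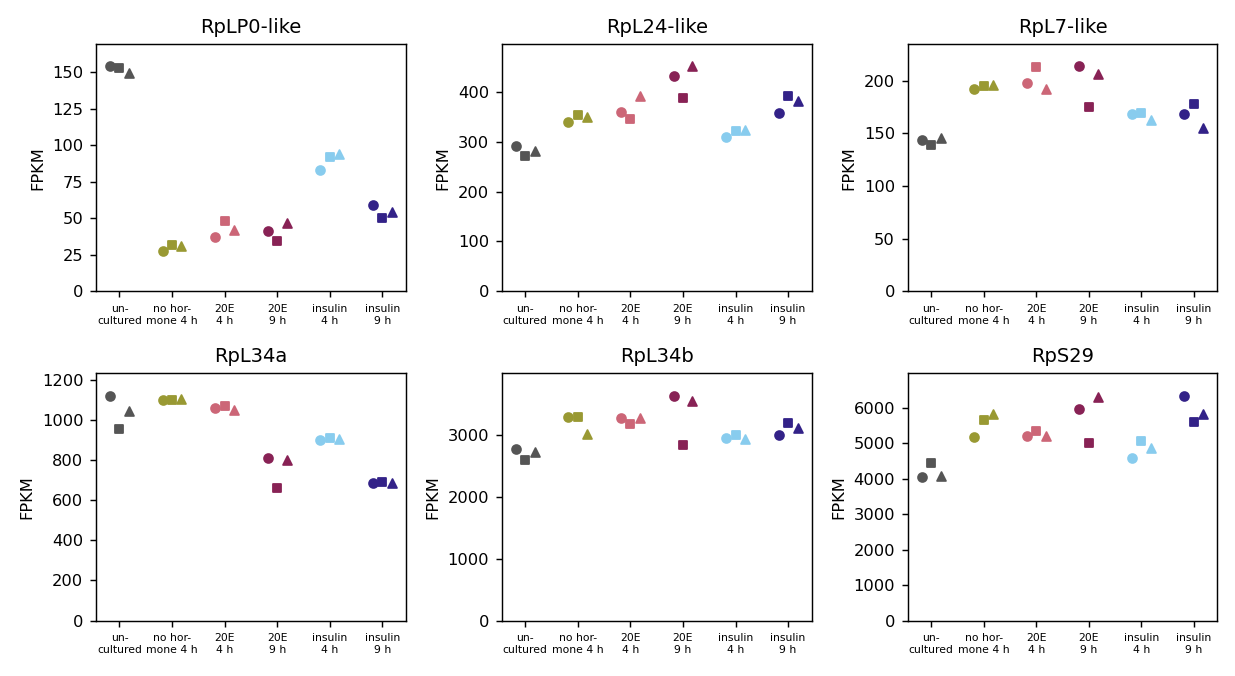
FPKM of 6 genes in each of the 18 libraries (symbols as in the plot of summed levels; each vertical axis starts at 0). RpLP0-like drops in culture and is highest of the cultures in insulin at 4 h, RpL24-like is highest in 20E at 9 h, and RpL34a drops at 9 h in both hormones while RpL34b does not.

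The pair RpL34a and RpL34b shifted with time in culture. RpL34a (FBgn0039406, chromosome 3R, 26058420 to 26059267, minus strand) stood at 1120.2, 955 and 1042 FPKM in uncultured discs. It held 1061, 1067 and 1049 FPKM in 20E at 4 h and 811, 662 and 798 FPKM at 9 h, and changed by -0.49 ± 0.06 (SE, adjusted p = 0.000125) on the log2 scale. In insulin it went from 900.2, 909.8 and 907 to 684, 691 and 688 FPKM, a log2 change of -0.40 ± 0.06 (SE, adjusted p = 0.0002). Every 9 h library of either hormone was below every other library of the series. RpL34b, the main copy, stood at 3245 ± 56.3 and 3341 ± 440.2 FPKM in 20E at 4 h and 9 h, and at 2962 ± 27.7 and 3105 ± 98.7 FPKM in insulin (SD, n = 3). It was not called with time in either hormone, with log2 changes of 0.03 and 0.07.

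As a share of both copies, RpL34a made up 27.8 ± 0.913% in uncultured discs and 25.6 ± 0.986% without hormone (SD, n = 3). It made up 24.6 ± 0.461% and 23.4 ± 0.140% in 20E and insulin at 4 h, and 18.5 ± 0.377% and 18.1 ± 0.400% at 9 h. The copies are similar in sequence, so the division of reads between them is uncertain. Against uncultured discs RpL34a fell by 0.46 ± 0.06 (SE, adjusted p = 1.28e-05) in 20E at 9 h and by 0.59 ± 0.06 (SE, adjusted p = 1.12e-06) in insulin at 9 h. Under quantile normalization the former became 0.10, a reversal of sign, and the latter was not called.

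The copies of RpS14 and RpS15A held narrow shares. RpS14b made up between 33.6% and 36.8% of RpS14a and RpS14b over all libraries, and RpS15Ab between 13.4% and 17.1% of RpS15Aa and RpS15Ab. The copies of both pairs are nearly identical, so their own levels are uncertain. How reads that fit both copies were handled is not given in the sources used here, so their sums may be affected too. RpL24-like made up 9.55 ± 0.181% of RpL24 and RpL24-like in uncultured discs and 12.2 ± 0.110% in 20E at 9 h, and RpL7-like 3.56 ± 0.0962% and 4.15 ± 0.121% of its pair. RpLP0-like went from 5.11 ± 0.0462% of RpLP0 and RpLP0-like in uncultured discs to 0.929 ± 0.0559% without hormone and 2.95 ± 0.216% in insulin at 4 h. The germline copies RpS5b, RpS19b and RpL22-like stayed under 0.1% of their pairs in every library.

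The genes share features that their names did not fix. Of the 87 tested genes 28 (32.2%) carry a snoRNA gene inside them, against 73 of 7820 tested protein-coding genes overall (0.93%), in the Ensembl 115 annotation. Small nucleolar RNAs guide the modification of ribosomal RNA and are often cut from introns of such host genes. Hosts and the 59 other genes had medians of 0.23 and 0.22 for the log2 change in culture without hormone, and of -0.10 and -0.09 for insulin at 4 h. The tested genes had a median transcript length of 708 nt against 1862 nt, a median 5′ untranslated region of 69 nt against 149 nt and a median of 3 exons against 4. They lie scattered over the genome, with 15 on X, 18 on 2L, 19 on 2R, 13 on 3L, 21 on 3R and 1 on chromosome 4.

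Other genes of the translation machinery were set beside the ribosomal proteins. A list of elongation and initiation factors and ribosome-associated proteins, taken from genes that belong with ribosomal proteins to the terminal oligopyrimidine class in mammals, had 11 tested genes. In culture without hormone 9 rose and 1 fell, against 35.1% and 35.5% of all tested genes, with a median log2 change of 0.19. Rack1, a scaffold on the small subunit, rose by 0.19 ± 0.07 (SE, adjusted p = 0.0308) and the elongation factor EF2 by 0.23 ± 0.06 (SE, adjusted p = 0.00188). The exception was eEF1delta, a subunit of the elongation factor exchange complex, which stood at 645, 598 and 621 FPKM in uncultured discs and 178, 174 and 181 FPKM without hormone (log2 change -1.80 ± 0.07, SE, adjusted p = 2.1e-11). In insulin at 4 h 1 of the 11 was higher and 5 lower, against 30.3% and 27.6% of all tested genes, with a median of -0.15. The higher one was eEF1delta, by 1.13 ± 0.07 (SE, adjusted p = 8.75e-09). In 20E at 4 h 1 was higher, again eEF1delta, and 0 were lower, against 15.7% and 15%.

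Ribosome assembly factors moved the other way and much further in culture without hormone and, on the deposited scale, in insulin at 4 h. Of 19 tested genes, 1 rose and 17 fell in culture without hormone, against 35.1% and 35.5% of all tested genes, with a median log2 change of -1.56. Nop56, a core protein of the particles that methylate ribosomal RNA, stood at 247, 225 and 226 FPKM in uncultured discs and 36.3, 39.9 and 39.2 FPKM without hormone. Its log2 change was -2.57 ± 0.09 (SE, adjusted p = 1.21e-11), and in insulin at 4 h it rose by 1.76 ± 0.09 (SE, adjusted p = 1.85e-09). In insulin at 4 h 18 of the 19 rose and 1 fell, against 30.3% and 27.6%, with a median of 1.01. In 20E at 4 h 13 rose and 0 fell, against 15.7% and 15%, with a median of 0.30. From 4 h to 9 h in insulin 1 rose and 17 fell, against 21.3% and 23.3%, with a median of -0.59. In 20E over the same time 1 rose and 5 fell, against 11.2% and 11.7%, with a median of -0.06. The gene that went against the list in culture, in insulin and with time was Non1, a GTPase that acts in large subunit assembly. It rose by 1.05 ± 0.06 (SE, adjusted p = 8.77e-10) without hormone and fell by 0.31 ± 0.06 (SE, adjusted p = 0.000404) in insulin at 4 h. The values of RpLP0-like lay within the range of this list in each of these comparisons, and those of RpL24-like and RpL7-like were on the opposite side of 0 from its median in culture without hormone.

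**Figure D5:**
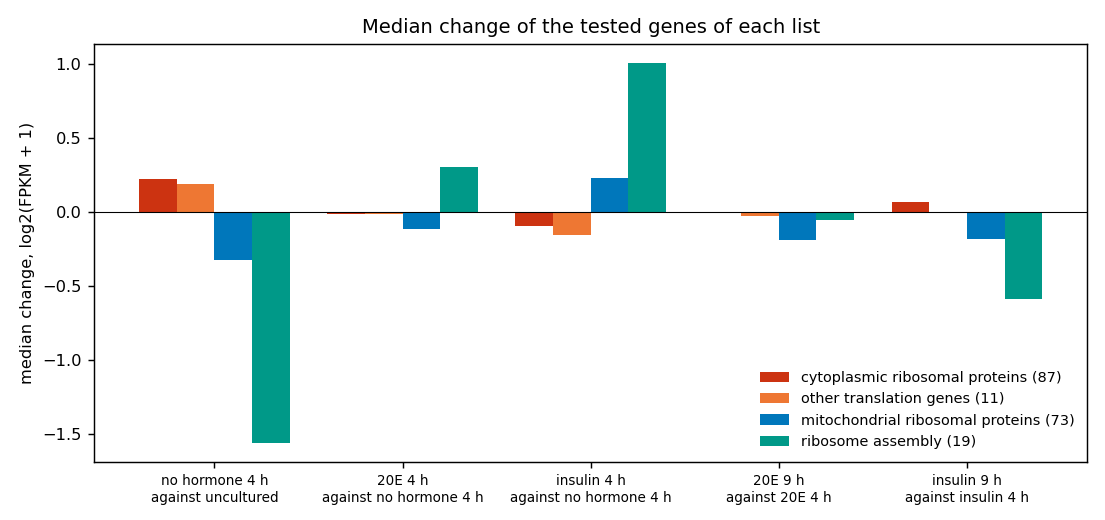
Median log2 change of the tested genes of 4 sets (number of genes in brackets) in 5 comparisons; bars start at 0. Cytoplasmic ribosomal proteins and other translation genes lie near each other, whereas mitochondrial ribosomal proteins and assembly factors are negative where they are positive in culture without hormone and positive where they are negative in insulin at 4 h.

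The mitochondrial ribosomal proteins, which build the separate ribosome of the organelle, had medians of the opposite sign to the cytoplasmic ones on the deposited scale, in culture without hormone and in insulin at 4 h. Of 73 tested genes 9 rose and 53 fell in culture without hormone, against 35.1% and 35.5% of all tested genes, with a median log2 change of -0.32. In insulin at 4 h 40 were higher and 8 lower, against 30.3% and 27.6%, with a median of 0.23. In 20E at 4 h 1 was higher and 23 lower, against 15.7% and 15%, with a median of -0.11. From 4 h to 9 h 0 rose and 37 fell in 20E, against 11.2% and 11.7%, and 5 rose and 39 fell in insulin, against 21.3% and 23.3%. For mitochondrial ribosomal proteins and assembly factors alike, the sign of the median in these comparisons was the same on the deposited scale, after median-ratio rescaling, after quantile normalization and with all other genes as the scale.

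Genes known to control ribosome production were also listed. Of 15 tested genes 7 rose and 7 fell in culture without hormone, against 35.1% and 35.5% of all tested genes, so the list as a whole is not read as a result. The gene dm, which encodes the fly Myc, stood at 67.5, 69.1 and 72.1 FPKM in uncultured discs and 54.6, 50.6 and 51.9 FPKM without hormone, a log2 change of -0.40 ± 0.08 (SE, adjusted p = 0.00059). In 20E at 4 h dm rose by 0.86 ± 0.08 (SE, adjusted p = 2.94e-06), and in insulin it was not called (log2 change 0.10 ± 0.08, SE, adjusted p = 0.354). Mnt, also on the list, rose by 0.64 ± 0.07 (SE, adjusted p = 7.26e-06) in 20E at 4 h. The listed gene foxo rose by 0.34 ± 0.06 (SE, adjusted p = 0.000255) in insulin at 4 h. Thor, which encodes the translation inhibitor repressed by Tor, went from 31.2, 53.2 and 32.4 to 227, 339.8 and 239 FPKM, a log2 change of 2.77 ± 0.20 (SE, adjusted p = 1.03e-08). It fell by 1.16 ± 0.20 (SE, adjusted p = 0.000151) in insulin and by 1.09 ± 0.20 (SE, adjusted p = 0.000775) in 20E at 4 h. Tor itself changed by -0.59 ± 0.05 (SE, adjusted p = 4.44e-08) in culture without hormone and by 0.27 ± 0.05 (SE, adjusted p = 0.000231) in insulin. Xrp1, a transcription factor induced in flies that lack one copy of a ribosomal protein gene, rose by 0.68 ± 0.14 (SE, adjusted p = 0.000403) without hormone. Xrp1 was also higher in insulin than without hormone, by 0.39 ± 0.14 (SE, adjusted p = 0.0244), and lower in 20E, by 0.42 ± 0.14 (SE, adjusted p = 0.0316). Of the other listed genes, CG6272 (Irbp18) rose by 1.75 ± 0.15 (SE, adjusted p = 5.24e-08) without hormone. CG13624 (REPTOR) rose by 1.42 ± 0.10 (SE, adjusted p = 4.78e-09) in the same comparison. Against culture without hormone CG13624 was called lower in insulin and 20E at 4 h, with changes of -0.78 and -0.60. Without hormone larp, Mnt and Max were also called higher, by 0.50, 0.29 and 0.22. Dref, Tif-IA, S6k, foxo and M1BP were called lower there, with changes of -0.65, -0.55, -0.32, -0.20 and -0.15.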

How the data were processed

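The authors deposited 1 table of FPKM per gene and replicate, which was made with cutadapt, TopHat2 and Cufflinks on build BDGP5, per the submitters' processing notes; versions, annotation release, filters and strand settings are not given in the sources used here. FPKM carry no counts, and no count test was run. Between 86.1% and 92.5% of low values of genes held out from the depth estimate lay within 0.1 of a whole fragment, and depths entered no test. Median-ratio factors of the deposited values were 0.996 to 1.00, so they appear to be scaled to a common level. Groups and replicate numbers come from the sample titles.

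A gene was tested when 3 or more of the 18 libraries reached 1 FPKM (8524 genes). Limma 3.58.1 (R 4.3.3) was fitted to log2(FPKM + 1) of the 18 libraries, using a mean-variance trend and group as sole term. Two-sided tests were used, and p-values were adjusted by Benjamini-Hochberg over all tested genes within each of 12 comparisons. Changes are on the log2(FPKM + 1) scale, which understates those of low genes. An exact permutation test of 3 against 3 libraries cannot go below p = 0.1. A p-value sets the difference between groups against the spread between libraries, estimated over all 18 libraries with the mean-variance trend. Locations come from Ensembl 115 (BDGP6.54), where all 93 genes matched, 5 of them by symbol only.

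The ribosomal protein genes and all lists were chosen with earlier results of these data known. Named were, per comparison, up to 3 called genes each for the strongest increases and decreases, provided that the higher group averaged 5 FPKM or more, all extra copies and untested genes, RpL41, the stalk genes, RpS27A, RpL40, sta and list members. Where other genes are named, this is said. Alternatives were quantile normalization, median-ratio rescaling, scaling to all other genes, 0.1 as pseudocount, filtering at a mean of 5 FPKM, omitting the filter, only the groups compared, a replicate block, array weights and leaving out each library. Genome sequence was not used here. Python 3.11.15, pandas 2.3.3 and matplotlib 3.10.9 were used.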

Additional observations from a re-analysis of the deposited data

Results flagged for a closer look

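The change of RpLP0-like from 4 h to 9 h differed between the hormones. The interaction term, the change in 20E minus the change in insulin, was 0.65 ± 0.15 (SE) on the log2 scale, with an adjusted p of 0.00553 over all tested genes in limma. RpLP0-like fell in insulin by 0.71 and changed by -0.06 in 20E, where it was already low at 4 h. Of the 19 assembly factors 11 were called in the same direction by the same term, against 13.5% of all tested genes. Their median was 0.42, that of the 87 ribosomal protein genes -0.07 and that of all tested genes 0.01.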

How the results depend on the processing

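Quantile normalization moved many counts; it gives every library the same top values and these genes hold the top ranks. The genes called higher than in uncultured discs numbered 24 without hormone, 25 and 27 in 20E at 4 h and 9 h and 24 in insulin at 9 h, and those called lower 3, 8 and 12 in the last 3. Over all 8524 tested genes the higher counts were 3117, 2994, 3175 and 2740, and the lower ones 2495, 2683 and 2749. Quantile normalization gave 8 higher and 2 lower for 20E against insulin at 4 h, 7 lower at 9 h, 3 higher with time in 20E, 11 lower with time in insulin and 2 lower for the interaction. Over all tested genes these counts were, in the same order, 2672 and 2126, 2006, 927, 1864 and 1201. The median change without hormone became 0.03, equal to that of all tested genes. RpL34a reversed its sign against uncultured discs, to 0.1036 in 20E at 9 h and 0.1792 in insulin at 4 h. Scaling to all other genes moved the median change of all tested genes without hormone to 0.19 and that of the ribosomal protein genes to 0.44. It gave 81 higher in insulin at 4 h than in uncultured discs, 27 lower in insulin than without hormone, 52 higher in 20E than in insulin at 4 h, 20 higher with time in insulin and 1 lower for 20E against insulin at 9 h. Over all 8524 tested genes these counts were, in the same order, 3663, 2715, 2974, 2133 and 1826. Over all genes that scaling called 4108 higher and 2030 lower without hormone, against 2990 and 3027.

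Fitting only the groups compared gave 47 lower in insulin than without hormone, 30 higher in 20E than in insulin at 4 h, 1 higher and 1 lower at 9 h, 0 higher and 1 lower with time in 20E, 18 higher with time in insulin and 24 higher in 20E at 9 h than in uncultured discs. Array weights gave 44, 68 and 16 for the first 3 of these, 9 higher and 7 lower with time in 20E, 33 and 5 in insulin, 4 lower in 20E at 9 h and 57 higher in insulin at 4 h than in uncultured discs, and 5 lower for the interaction. Without the filter the counts were 2 lower in insulin than without hormone, 3 higher and 1 lower for 20E against insulin at 9 h, 1 lower with time in 20E, 2 higher with time in insulin and 9 higher in insulin at 4 h than in uncultured discs. A mean of at least 5 FPKM removed RpS19b, leaving 1 lower without hormone and 1 higher in 20E. No shares over all genes are given for the fits of this paragraph, so their counts are not set against genes in general.

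Leaving out 1 library gave 60 to 78 higher and 1 to 2 lower without hormone, 3 to 8 lower in insulin than without hormone, 2 to 30 higher and 1 to 5 lower for 20E against insulin at 9 h, 0 to 17 higher with time in 20E, 3 to 4 higher with time in insulin, 11 to 32 higher in insulin at 4 h than in uncultured discs, and 0 to 1 lower for the interaction (1 without 20E 4 h replicate 1, 20E 9 h replicate 3 or insulin 9 h replicate 1 or 2). The cause was not tested.

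The summed share of protein-coding FPKM was 45.8% in uncultured discs and 53.7% without hormone. It was 54.0% at 4 h and 54.0% at 9 h in 20E, and 51.1% and 53.3% in insulin. Without RpL41 the share of all FPKM was 41.8% in uncultured discs and 49.4% without hormone. It was then 49.6% and 49.8% in 20E and 46.9% and 48.8% in insulin. Leaving out RpL41 and the protein-coding denominator were chosen after the data were seen. The insulin share at 4 h lay between the uncultured and no hormone shares under both. Of 711 refits of 47 named results, 662 kept their direction and side of the threshold, 47 lost the call and 2 reversed.

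No pairing by replicate number was seen: 8 of 45 same-numbered pairs correlated above 0.1, and 4 of 18 libraries matched their own number best. Deviations from a mean of 3 libraries cancel within a group, so this check cannot show that pairing was absent. With a replicate block 79 genes were called higher and 2 lower without hormone, 36 higher in insulin at 4 h than in uncultured discs, 9 higher with time in insulin and 1 lower for the interaction. Low copies limit the reading: under about 3 FPKM, RpS19b, RpS5b and RpS28a rest on few fragments.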
